A study of Mus musculus with 6 samples.

Results

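Early immature olfactory neurons are olfactory sensory neurons (OSNs) that have left the precursor stage and have not yet matured. They were taken from the single-cell libraries of the mouse main olfactory epithelium by their UMIs, the unique molecular identifiers that count transcripts in each cell barcode. A barcode was kept with at least 1000 UMIs and 500 genes. It was called an early immature neuron with at least 5 UMIs of Gap43, at least 2 of Tex15 and Nhlh1 together, fewer than 10 of Omp and fewer than 5 of Cyp2g1. By this rule 1700 of 24830 kept cells were early immature neurons, and they had 3380.5 to 3929 genes at the median of a library. Because these UMIs chose the cells, the levels of the 5 genes are given as a description and were not tested.

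The 6 libraries came from 2 swap, 2 control, 1 tetOP2 and 1 gg8tTA samples. Both swap libraries are labelled Cbx*/* with a Cre recombinase allele, and in the study's methods Cre replaces Cbx1, which encodes HP1β, by Cbx5, which encodes HP1α, under the Cbx1 promoter. The labels give control replicate 1 as WT with the Cre allele and control replicate 2 as Cbx*/* without it, so the controls did not share 1 genotype. The tetOP2 library is labelled gg8-tTA with tetOP2iresGFP, a transgene in which the tTA activator, driven by the Gng8 promoter in immature neurons, switches on the P2 receptor Olfr17. The gg8tTA library carries gg8-tTA alone. Ages are not given in the labels, and each library is 1 sample. The series text speaks of sorted cells, whereas the methods of the study describe dissociated whole epithelium, and sustentacular cells were present in the files.

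In the olfactory epithelium, globose basal cells give rise to immediate neuronal precursors, which leave the cell cycle and become immature OSNs that extend an axon to the olfactory bulb. Gap43, a growth cone protein, marks the immature stage, and Omp, the olfactory marker protein, the mature one. Each mature OSN transcribes a single olfactory receptor (OR) gene from 1 allele, while other OR genes lie in heterochromatin bound by HP1 proteins. Immature OSNs can hold transcripts of several ORs before the choice becomes stable.

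The share of kept cells that were early immature neurons was 7.12% and 4.73% in swap replicates 1 and 2, 7.82% and 4.15% in control replicates 1 and 2, 9.56% in tetOP2 and 10.1% in gg8tTA. These were 356, 234, 398, 184, 245 and 283 cells in the same order, with median depths between 9590.5 and 12685 UMIs. The shares of the 2 genotypes overlapped, and both replicate 1 libraries had the higher share of their genotype. Late immature neurons, which had at least 5 UMIs of Gap43, more Gap43 than Omp and fewer than 2 UMIs of Tex15 and Nhlh1 together, numbered 1478. The late gate had no limit on Cyp2g1, a sustentacular gene, and up to 10 late cells per library held 5 or more Cyp2g1 UMIs. No barcode of an early cell was shared between libraries, and 0 to 13 barcodes of kept cells were shared by any pair.

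Several libraries stood apart in ways that the groups do not set. Rn45s, the ribosomal RNA precursor, had 53093 CPM (the UMIs of a gene scaled to 1000000 UMIs) in early cells of swap replicate 2 and 36139 CPM in those of control replicate 2, against 285 to 7495 CPM in the other libraries. Of the early cells, 96.7% in tetOP2 and 98.2% in gg8tTA held at least 3 UMIs of markers of other cell types, against 16.8% to 31.5% in the swap and control libraries. Xist was at 1274 to 1468 CPM in swap replicate 1, tetOP2 and gg8tTA and under 1 CPM in the others, where the Y-linked Ddx3y had 44.9 to 55.9 CPM, so the swap pair held both sexes and the control pair held males.

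Of the 4 markers of this stage, Gap43 and Nhlh1 were found in nearly the same amount in every library and Tex15 and Crabp1 were not. Gap43 had 2557, 2312, 2685, 2506, 2457 and 2288 CPM in early cells of swap 1, swap 2, control 1, control 2, tetOP2 and gg8tTA, an order kept in the sentences that follow. Nhlh1, which encodes a basic helix-loop-helix (bHLH) factor of newborn neurons, had 299, 359, 342, 380, 385 and 346 CPM. Both ranges were narrow, and the genotypes overlapped. Tex15 had 215, 739, 225, 868, 241 and 255 CPM, highest in both replicate 2 libraries. Crabp1, a cellular retinoic acid binding protein that the rule did not use, had 322, 902, 492, 1134, 1193 and 1164 CPM in early cells, against 86.7, 128, 76.5, 151, 222 and 210 CPM in late cells. The lowest early library was above the highest late one, and precursors had 1157 to 1846 CPM. Sustentacular cells held 242 to 482 CPM of Crabp1 and 43.1 to 190 CPM of Tex15; whether these UMIs are free RNA was not tested.

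**Figure D1:**
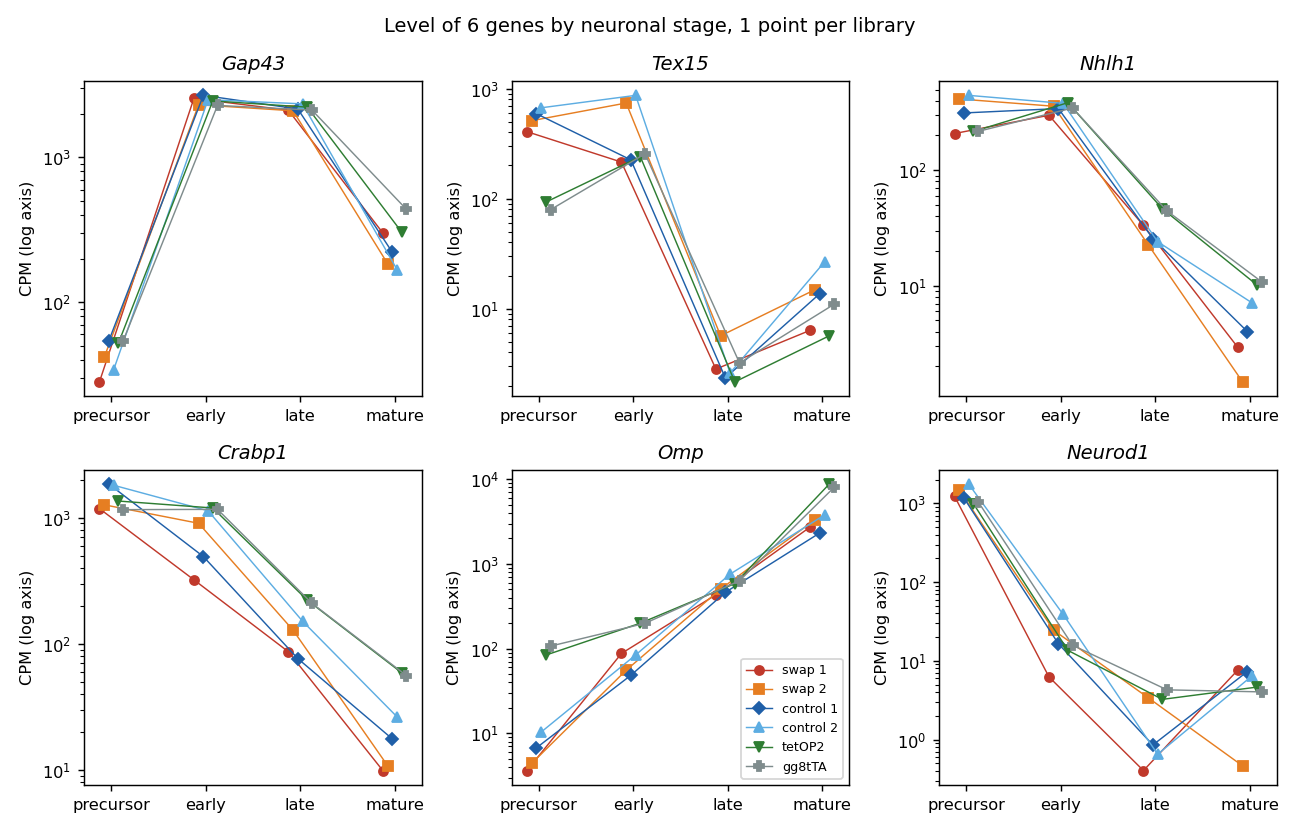
Level in CPM on a log axis in neuronal precursors, early and late immature neurons and mature neurons, with 1 point for each of the 6 libraries. Precursors were gated on Neurog1 and Neurod1 and the other stages on Gap43, Tex15, Nhlh1 and Omp, so Crabp1 is the one gene shown that chose no cells. It fell from 1157 to 1846 CPM in precursors to 9.92 to 59.1 CPM in mature neurons.

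The genes with the most UMIs in early cells, ribosomal and mitochondrial ones aside, included Malat1, a nuclear RNA at 21876 CPM on average, Tmsb10 and Tmsb4x, which bind actin, Tuba1a, Stmn1 and Map1b of the microtubules, Ptma, Tpt1 and H3f3b. Neurod1, a proneural factor that gated the precursors (991 to 1759 CPM there) but not the immature cells, was at 6.24 to 38.9 CPM in early cells and 0.403 to 4.28 CPM in late cells. Omp was at 48.5 to 200 CPM in early, 432 to 758 CPM in late and 2324 to 8772 CPM in mature cells, an order that the gates fix. Chat of microvillar cells, Hbb-bt of erythroid cells and Trpc2 of vomeronasal neurons were at 0 UMIs in all early cells. The 4 neutrophil markers summed to 484, 465, 1492, 28.6, 141 and 75.4 CPM, led by S100a9, and the 5 fibroblast markers to 279, 39.2, 41.1, 52.0, 201 and 1643 CPM, led by Col1a2. The 6 sustentacular markers summed to 98.8 to 953 CPM, led by Cbr2. The summed markers ranged over 12.4 to 69.0 CPM for globose basal cells, 0.794 to 49.4 CPM for horizontal basal cells, 0.794 to 16.4 CPM for microvillar cells, 19.8 to 253 CPM for Bowman gland, 10.3 to 158 CPM for ensheathing glia, 13.1 to 69.6 CPM for macrophages and 17.1 to 49.7 CPM for erythroid cells. Those of B cells (565 to 1020 CPM) and vomeronasal neurons (344 to 545 CPM) were led by Ebf1 and Gnao1, which olfactory neurons express as well. Part of these UMIs may be of other cells in the same droplet or of free RNA, which was not tested, and no doublet caller was run.

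Tex15 and Nhlh1 were counted together by the gate, so a cell could enter by either gene. Between 139 and 344 cells per library entered with at least 2 Nhlh1 UMIs and fewer than 2 of Tex15, 20 to 48 entered with at least 2 of Tex15 and fewer than 2 of Nhlh1, and 9 to 24 had at least 2 UMIs of both. Cells with 10 or more Tex15 UMIs were 7.58% to 20.1% of the early cells of a library and held 71.1% to 98.2% of its Tex15 UMIs. Of these Tex15-rich cells, 94.4% to 100% also held 5 or more UMIs of Crabp1, against 2.97% to 9.88% of the early cells without Tex15. At the edge of the gate, 23 to 131 cells per library had exactly 2 UMIs of Tex15 and Nhlh1, with 44.9 to 308 CPM of Crabp1, and 30 to 157 cells had 1 such UMI and otherwise passed, with 93.3 to 316 CPM of Crabp1.

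Early cells were therefore described by their Crabp1 UMIs, which the rule had not read, and this split is a description without a test. It is not independent of the gate. Tex15 was at 891 to 3389 CPM in cells with 5 or more Crabp1 UMIs and 2.46 to 17.4 CPM in cells without Crabp1. Cells with 5 or more Crabp1 UMIs made up 14.0%, 26.5%, 14.3%, 25%, 27.3% and 26.5% of the early cells. In them Gap43 was at 840 to 1342 CPM, against 2856 to 3104 CPM in cells without Crabp1. Cxcr4, a chemokine receptor of migrating precursors, had 132, 75.0, 134, 139, 148 and 122 CPM in the Crabp1-rich cells, against 2.14 to 10.6 CPM in cells without Crabp1. In each of the 6 libraries the summed value of the Crabp1-rich cells was the higher of these 2. Lhx2, a homeodomain factor that binds OR enhancers, was at 1273 to 2683 CPM in Crabp1-rich cells and 479 to 828 CPM in those without, and Hes6, a bHLH factor of neuronal differentiation, at 269 to 502 CPM against 41.8 to 110 CPM. The reverse order was found for Cnga2, a subunit of the odor-gated channel, with 23.6 to 33.9 CPM against 130 to 272 CPM. Tubb5, a beta tubulin, ranged over 2388 to 5137 CPM and 2135 to 5001 CPM in the same cells, and its ranges overlapped.

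**Figure D2:**
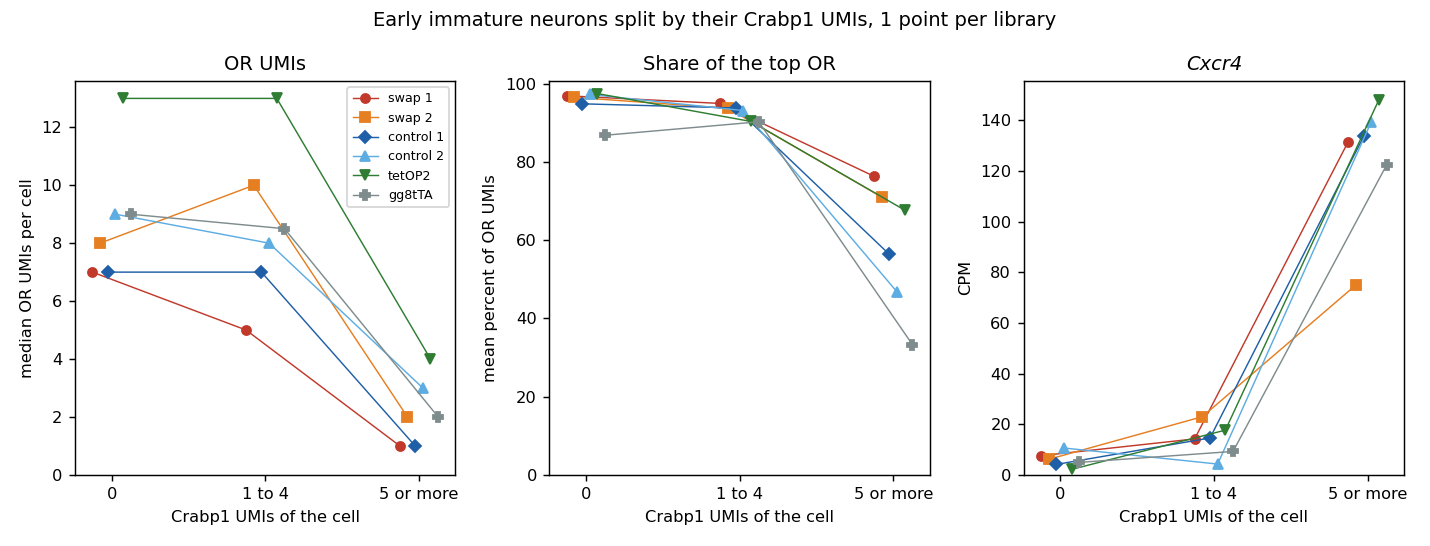
Early immature neurons of the 6 libraries grouped by their Crabp1 UMIs on the x axis, with the median OR UMIs per cell and the mean percent of OR UMIs from the leading OR in cells thinned to 3000 UMIs, and Cxcr4 in CPM. In every library the cells with 5 or more Crabp1 UMIs had the fewest OR UMIs, the lowest share of the leading OR and the most Cxcr4.

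To ask what separates early from late immature neurons, UMIs were summed per library and stage and 10489 genes were tested with edgeR's quasi-likelihood test with the library as a block. Calls needed an adjusted p (Benjamini-Hochberg) under 0.05 and a log2 fold change beyond 0.58 in either direction, and the 5 genes of the gate took no part. In all, 845 genes were called, or 8.06% of those tested, 279 higher in early cells (2.66%) and 566 higher in late cells (5.4%). The median log2 fold change over all tested genes was 0.03. The stages were split by genes counted in the same cells, so these calls describe how the cells on either side of that split differ. In the swap and control libraries alone 1077 genes were called, and 323 without the library block.

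The 12 leading genes that were higher in early cells had varied roles. Crabp1 led, with a log2 fold change of 2.55 ± 0.12 (SE, edgeR adjusted p = 5.61e-06) and 868 ± 375 CPM in early against 146 ± 60.9 CPM in late cells (SD, n = 6). Baz1a, a subunit of chromatin remodelling complexes, had 60.5, 93.4, 56.8, 88.1, 89.2 and 107 CPM in early cells and 28.2, 32.8, 23.7, 29.2, 35.6 and 45.5 CPM in late cells. Every early library lay above every late one, and precursors, at 794 to 1308 CPM, lay above both. Zmynd8 and Cdyl2, a chromatin reader and a chromodomain protein, were higher by 1.19 ± 0.09 and 1.48 ± 0.13, and Rcor1, the CoREST partner of the demethylase LSD1, by 0.75 ± 0.06. Unlike Baz1a and Cdyl2, Rcor1 was higher in early cells (75.6 to 299 CPM) than in precursors (20.5 to 149 CPM) in each of the 6 libraries. Dpysl3, a collapsin response mediator of growth cones, had 1324 to 1711 CPM in early, 760 to 1274 CPM in late and 51.3 to 112 CPM in mature cells. Tubb5, a beta tubulin, was higher by 0.63 ± 0.05 and Vim, the intermediate filament vimentin, by 0.92 ± 0.08. The other 4 genes were Pim1 (a kinase), Trp53i11, Sertad2 and Grp. Grp, gastrin-releasing peptide, fell from 409 to 619 CPM in precursors to 19.8 to 48.3 CPM in early and 1.30 to 14.0 CPM in late cells.

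Of the 12 leading genes that were lower in early cells, all were higher still in mature neurons. Uckl1os, an antisense RNA, had 7.06, 10.0, 7.42, 11.9, 20.9 and 18.5 CPM in early cells and 33.1, 41.3, 44.8, 57.2, 80.9 and 75.9 CPM in late cells, with a median of 102 CPM in mature cells. The log2 fold change was -2.16 ± 0.11 (SE, edgeR adjusted p = 6.52e-06), and the stages did not overlap. A730046J19Rik, an uncharacterised transcript, had the largest difference of the 12, -3.55 ± 0.27, with 2.09 to 3.17 CPM in early and 10.8 to 57.2 CPM in late cells. Dcdc2a, a doublecortin domain protein of cilia, was at 11.7 to 20.6 CPM in early, 41.0 to 157 CPM in late and 691 to 1212 CPM in mature cells. Jakmip1, which binds microtubules, was at 82.0 to 183 CPM in early and 328 to 540 CPM in late cells. Sgpl1, sphingosine phosphate lyase, and Slc4a4, a sodium bicarbonate cotransporter, were lower by -0.89 ± 0.07 and -1.28 ± 0.10. Macrod1, Fam131c, Lrrc10b, Stbd1, Nap1l5 and Acbd7 completed the set.

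**Figure D3:**
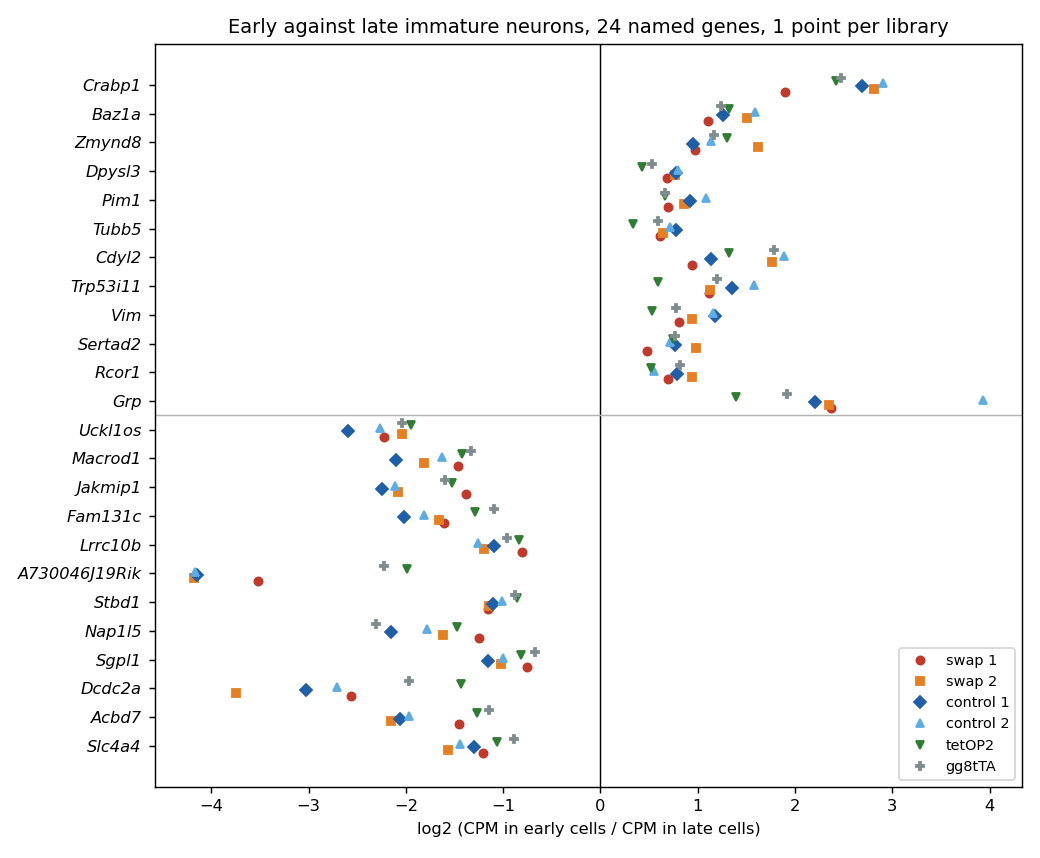
The log2 ratio of CPM in early to CPM in late cells on the x axis for the 12 genes that led in each direction, with 1 point per library. The genes were selected for having the same sign in all 6 libraries, so the side of 0 on which the points lie is set by that choice, and the spread between libraries is what the plot adds.

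Of 21 tested factors, 5 were higher and 0 lower, beside 2.66% higher and 5.4% lower over all tested genes, and the median log2 fold change over the list was 0.37. Neurod1 had the largest difference, 3.32 ± 0.37 (SE, edgeR adjusted p = 0.00025), from low levels in both stages. Neurog1, which acts before Neurod1 in the precursors, was higher by 1.61, Hes6 by 1.07 ± 0.12 and Nhlh2, the paralog of Nhlh1, by 0.98 ± 0.13. Sox11, a factor of newborn neurons, had 3248 to 7866 CPM in precursor, 1719 to 3054 CPM in early, 988 to 1491 CPM in late and 95.3 to 175 CPM in mature cells. The bHLH factors bind E-boxes, and the 250 bases before the RefSeq starts of Neurod1 and Hes6, which were higher in early cells, of Nhlh1, which chose the cells, and of Crabp1, the leading gene, are shown 5′ to 3′ with each E-box CANNTG in capitals. The motif equals its own reverse complement in this spelling, so both strands read alike. The windows are from GRCm38.p6, at chr2:79456637-79456886, chr1:91414039-91414288 and chr1:172057597-172057846 on the minus strand and chr9:54764498-54764747 on the plus strand.
Neurod1: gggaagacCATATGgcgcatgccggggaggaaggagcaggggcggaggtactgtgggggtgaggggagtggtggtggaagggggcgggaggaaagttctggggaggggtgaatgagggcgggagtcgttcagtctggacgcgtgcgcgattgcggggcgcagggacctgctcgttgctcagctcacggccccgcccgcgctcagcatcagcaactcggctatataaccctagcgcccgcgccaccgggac
Hes6: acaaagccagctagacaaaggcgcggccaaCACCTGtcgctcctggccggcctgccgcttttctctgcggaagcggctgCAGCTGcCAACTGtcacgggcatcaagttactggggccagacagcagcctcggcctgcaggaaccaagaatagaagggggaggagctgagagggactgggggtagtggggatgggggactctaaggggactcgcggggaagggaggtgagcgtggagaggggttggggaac
Nhlh1: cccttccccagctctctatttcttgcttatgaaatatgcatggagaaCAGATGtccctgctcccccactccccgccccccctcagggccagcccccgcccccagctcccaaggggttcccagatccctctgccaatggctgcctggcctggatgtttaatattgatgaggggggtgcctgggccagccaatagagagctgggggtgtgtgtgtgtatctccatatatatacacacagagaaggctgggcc
Crabp1: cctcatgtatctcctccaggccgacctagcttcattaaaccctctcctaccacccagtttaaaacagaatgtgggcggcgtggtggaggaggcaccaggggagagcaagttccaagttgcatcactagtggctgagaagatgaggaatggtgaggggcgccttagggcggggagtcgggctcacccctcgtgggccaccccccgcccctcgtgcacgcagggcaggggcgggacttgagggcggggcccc
The windows of Neurod1 and Nhlh1 held 1 match each, that of Hes6 held 3 and that of Crabp1 held 0. Of 27025 windows of that length, 66.0% held at least 1 match, so a match in these windows is a description only.

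Of 27 tested genes of axon growth and the cytoskeleton, 5 were called higher, Dpysl3, Elavl4, Tubb2b, Dbn1 and Gng8, and 1 lower, Stmn4, and 23 of the 27 had a positive log2 fold change with a median of 0.36, against shares of 2.66% called higher and 5.4% called lower over all genes. Elavl4, an RNA-binding protein of neurons, was higher by 0.70 ± 0.06, and Dbn1, the actin-binding drebrin, by 0.64 ± 0.07. Stmn4, of the microtubule-destabilising stathmins, was lower by -0.93. Of 28 tested receptors and adhesion molecules of axon guidance, 1 was higher and 6 were lower, beside the 2.66% and 5.4% over all genes. The median was -0.14, with 11 of the 28 positive and 17 negative. The receptor higher in early cells was Cxcr4, by 1.46 ± 0.16, at 26.2 to 46.6 CPM against 6.82 to 18.3 CPM. Kirrel3, an adhesion molecule that sorts axons into glomeruli, had 5.70, 4.35, 3.71, 5.16, 2.72 and 3.77 CPM in early and 20.2, 22.6, 20.5, 17.5, 17.3 and 10.7 CPM in late cells. The stages did not overlap, and the log2 fold change was -2.06 ± 0.18. Epha5, Cntn4, Pcdh10, Plxna4 and Kirrel2, which guide or sort axons as well, were lower too, and Epha5 had the largest difference at -2.35 ± 0.25.

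Of 21 tested odor transduction and maturation genes, 12 were lower in early cells, where 5.4% of all genes were, and 0 higher, with a median log2 fold change of -0.88. Gnal, the G protein alpha subunit of odor transduction, had 189, 197, 174, 344, 127 and 156 CPM in early cells and 610, 1025, 723, 1352, 259 and 330 CPM in late cells. Early was below late in each library, but early cells of control replicate 2 had more than the late cells of tetOP2 and gg8tTA. Gng13, its gamma subunit, was at 825 to 1621 CPM in early, 1882 to 3394 CPM in late and 5440 to 11437 CPM in mature cells. Cfap126, Slc17a6 (a vesicular glutamate transporter), Cnga2, Cnga4 and Cngb1 (the channel subunits), Ano2 (a chloride channel), Ric8b, Stoml3, S100a5 and Umodl1 were lower as well. Adcy3, the adenylyl cyclase of the cascade, had a log2 fold change of -0.37 with an adjusted p of 0.051 and was not called.

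Of 28 tested receptor choice and heterochromatin genes, 1 was called (8.06% of all genes were), Ldb1, the cofactor through which Lhx2 joins OR enhancers, at 0.59 ± 0.10 (SE, edgeR adjusted p = 0.0027), and 23 of the 28 had a positive difference, with a median of 0.20. Lhx2 itself had 0.41, Kdm1a (LSD1) 0.50, Trim28 0.41, and Cbx1, Cbx3 and Cbx5 0.25, 0.19 and 0.20, with adjusted p under the threshold but folds too small to be called. Of 19 tested cell cycle genes 3 were higher in early cells, where 2.66% of all genes were, Cdkn1b, a cyclin-dependent kinase inhibitor, Cdk1 and Cenpf, with 0 lower and a median of 0.40. The levels of Cdk1 were low, 2.72 to 16.7 CPM in early cells against 133 to 256 CPM in precursors. Of 4 dorsal markers 2 were called, where 5.4% of all genes were lower, and Nqo1 and Acsm4 were lower in early cells by -1.55 ± 0.14 and -1.23 ± 0.17, with 3 of the 4 negative and a median of -0.75. Sustentacular cells held 229 to 460 CPM of Acsm4, in each library more than mature cells, which held 135 to 271 CPM. The part of sustentacular RNA in the Acsm4 of early cells, 15.4 to 48.3 CPM, was not tested. Of 5 ventral markers 1 was called, where 2.66% of all genes were higher, and Nfia, a nuclear factor I protein, was higher by 0.61 ± 0.12, with 3 of the 5 positive, 2 negative and a median of 0.17. Of 26 OR names abundant enough for the test, 4 were called, Olfr455 and the pseudogene Olfr1372-ps1 higher and Olfr99 and Olfr859 lower in early cells. An OR sum rests on the few cells that express that OR.

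OR transcripts were present in most early cells. To compare stages of unequal depth, each cell was thinned at random to 3000 UMIs, which left out at most 1 early cell per library. The median early cell then held 5, 6, 5, 5.5, 11 and 5 OR UMIs, against 5, 7, 10, 14, 10.5 and 6 in late cells and 14, 21, 16, 22, 25 and 22 in mature cells. The median was 0 in precursors and in sustentacular cells, which do not express ORs. Early cells were below late cells in 4 libraries, level in swap replicate 1 and above in tetOP2, with a mean difference of -2.5 UMIs. The exact two-sided sign-flip permutation test over the 6 libraries gave p = 0.125, and p = 0.125 after Benjamini-Hochberg adjustment over 4 such measures. The smallest p it allows is 0.0312 where no library has a difference of 0, and the 0 of swap replicate 1 raises that limit here. In the swap libraries the early minus late difference was 0 and -1, and in the controls it was -5 and -8.5. The genotypes did not overlap in it, and an exact permutation of 2 against 2 libraries, added after the values were seen, gave p = 0.333, the smallest it allows. The early medians of swap and control overlapped, and the late medians, 5 and 7 against 10 and 14, did not. The same difference was -1 in gg8tTA and 0.5 in tetOP2, which are not labelled with the swap allele.

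The number of OR genes per cell was higher in early than in late cells by less than the spread between libraries. Early cells had 0.969, 1.16, 1.08, 1.40, 1.63 and 1.76 OR genes on average and late cells 0.951, 1.04, 1.13, 1.15, 1.59 and 1.52. The mean difference was 0.104 ± 0.123 (SD, n = 6, exact permutation p = 0.125, adjusted p = 0.125). It depended on depth, at -0.0334 thinned to 1000 UMIs, 0.26 thinned to 6000 and 0.605 unthinned, the last 2 with an exact permutation p of 0.0312. Cells with 2 or more OR genes were 18.0%, 22.7%, 20.7%, 28.3%, 40.0% and 45.9% of the early cells and 15.8%, 15.9%, 21.7%, 18.6%, 36.2% and 42.5% of the late cells. Early was higher in 5 of 6 libraries, by 4.15 ± 3.74 points (SD, n = 6, exact permutation p = 0.0625, adjusted p = 0.125). Sustentacular cells gave 1.41%, 1.20%, 2.00%, 1.80%, 3.76% and 8.92% after the same thinning. Unthinned, at median depths of 12468 to 18697 UMIs, they gave 13.9%, 22.8%, 16.7%, 27.5%, 45.8% and 60.9%, against 40.7%, 53.4%, 48.0%, 59.8%, 69.8% and 83.0% of early cells at 9590.5 to 12685 UMIs. This background was highest in gg8tTA and tetOP2, where the shares in early cells were also highest, and its part in them was not tested. When an OR had to have 2 UMIs, the shares were 2.81% to 5.71% in early and 1.77% to 9.57% in late cells, and the mean difference was -0.0832 points.

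The leading OR of a cell held 95.3%, 91.2%, 92.2%, 85.9%, 87.9% and 79.2% of the OR UMIs in early cells with at least 3 OR UMIs, against 94.2%, 93.0%, 94.4%, 94.5%, 89.3% and 85.7% in late and 95.02% to 98.14% in mature cells. It was lower in early cells in 5 of 6 libraries, by -3.22 ± 3.58 points (SD, n = 6, exact permutation p = 0.0625, adjusted p = 0.125). The difference depended on depth, at -0.578 points thinned to 1000 UMIs (exact permutation p = 0.4375) and -5.58 thinned to 6000 (exact permutation p = 0.0625). Unthinned, it was -6.54 points and the exact permutation p was 0.0312. Within the early cells the Crabp1-rich ones differed most from mature cells. They had a median of 1, 2, 1, 3, 4 and 2 OR UMIs, and the leading OR held 76.4%, 71.0%, 56.4%, 46.8%, 67.7% and 33.3% of them, over 11, 24, 15, 25, 44 and 30 cells. Sustentacular cells, whose OR UMIs are background, had leading shares of 90.1%, 92.1%, 72.2%, 65.9%, 77.8% and 43.4%, over 8, 6, 6, 3, 6 and 8 cells. The part of background UMIs in the low shares of the Crabp1-rich cells was not tested. Early cells without Crabp1 had medians of 7, 8, 7, 9, 13 and 9 and leading shares of 86.8% to 97.5%. The Crabp1-rich cells had 2 or more OR genes in 24% to 60.9% of cells but 2 ORs of at least 2 UMIs each in 0% to 8.06%, so where a further OR was present it mostly had 1 UMI.

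**Figure D4:**
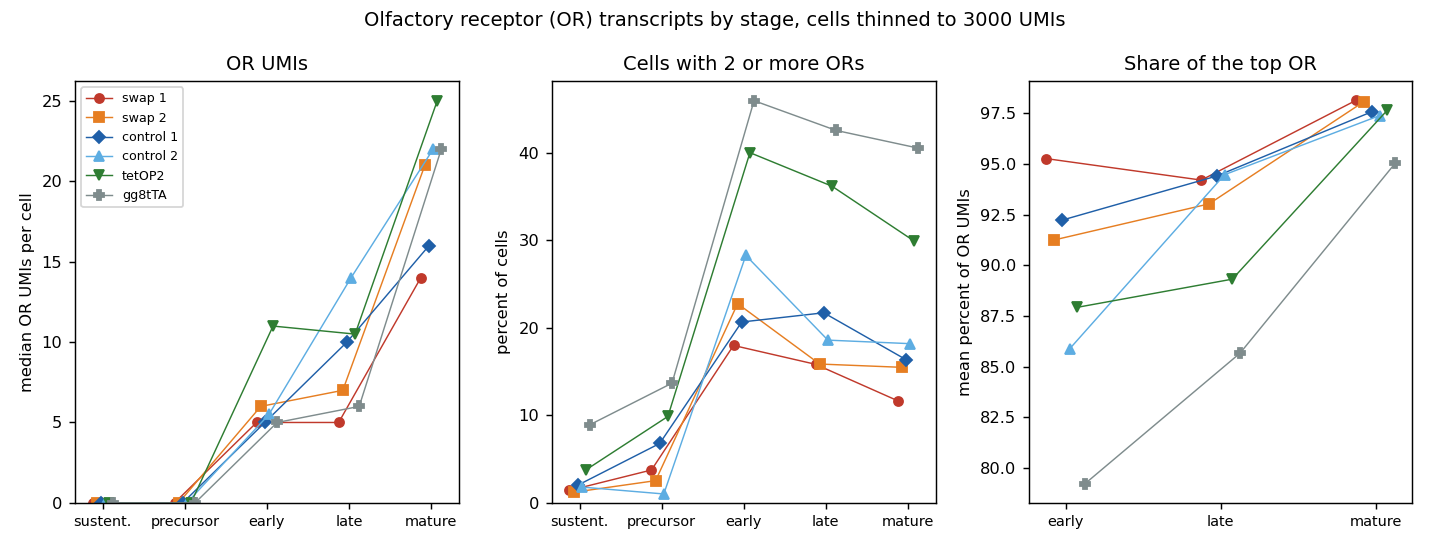
Median OR UMIs per cell, percent of cells with 2 or more OR genes and the mean percent of OR UMIs from the leading OR, by stage, after thinning to 3000 UMIs, with 1 point per library. The third axis does not start at 0. The median was 0 OR UMIs in precursors and 5 to 11 in early cells, and sustentacular cells, which do not express ORs, are shown for comparison.

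Early cells used a broad set of receptors. An OR was assigned to a cell when it had the most OR UMIs, at least 3 and no tie, which held for 69.7%, 69.2%, 66.6%, 64.1%, 79.6% and 59.0% of the early cells and 87.6% to 95.1% of the mature ones. The assigned cells of the 4 swap and control libraries used 180, 134, 211 and 104 different ORs in 248, 162, 265 and 118 cells. No receptor took more than 7 cells in any of these libraries. Olfr1440 was assigned to 8 early cells, 2, 4, 1 and 1 in the 4 libraries, and Olfr536 to 7, all of control replicate 1. Olfr1348, Olfr653, Olfr692, Olfr813 and Olfr1507 followed with 6 cells each, those of Olfr1507 in the control libraries. Class I ORs, the family clustered on chromosome 7, took 9.27%, 6.17%, 11.3%, 9.32%, 3.08% and 8.98% of the assigned early cells, and their exact 95% intervals overlapped between the swap and control libraries. In 207 cells over the 6 libraries a further OR had at least 2 UMIs in the unthinned counts, with 71 pairs on the same chromosome and 51 within 1 Mb of each other, where the counting may split reads of near-identical genes.

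Olfr17, the receptor of the tetOP2 transgene, held most OR UMIs of precursors and early cells in the tetOP2 library. In early tetOP2 cells Olfr17 held 5180 of 9619 OR UMIs, or 53.9% (exact 95% interval 52.8% to 54.9%, counting error only), and was the assigned OR of 110 of 195 cells. In early gg8tTA cells it held 36 of 8354 OR UMIs, or 0.431%, and 1 of 167 assigned cells. In the tetOP2 library Olfr17 held 89.3% of OR UMIs in precursors, 48.2% in late, 59.1% in mature and 54.6% in sustentacular cells. Its level there was 588 CPM in precursors, 2009 CPM in early, 1650 CPM in late and 4944 CPM in mature cells. It was 78.7 CPM in sustentacular cells, where the source of these UMIs was not tested. The gg8tTA precursors had 0 of 345 OR UMIs on Olfr17. With 1 library each there is no replicate check of this difference.

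The swap allele was read first by its own genes. Cbx1 had 2.99 and 4.35 CPM in early cells of the swap libraries and 127 and 164 CPM in those of the controls, in 23 swap and 434 control cells with a UMI. The genotypes did not overlap, and the log2 fold change was -5.33 ± 0.31 (SE, edgeR adjusted p = 0.0134). Cbx5 had 107 and 135 CPM in the swap and 34.3 and 58.7 CPM in the control libraries. They did not overlap either, but the difference of 1.37 ± 0.29 had an adjusted p of 0.429, and of 0.012 with DESeq2, the lowest over its alternatives, which reached 1. With the replicate number as a block the edgeR adjusted p was 0.0145. Cbx3, which encodes HP1γ, had 336 and 327 CPM against 381 and 358 CPM, a difference of -0.19 ± 0.21. The Cbx1 and Cbx5 differences were present in late and mature cells too, with Cbx1 at 1.81 to 4.53 CPM in the swap and 81.9 to 157 CPM in the control libraries.

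Beyond Cbx1 no gene was called between swap and control early cells in the main test, which had no replicate block. This was 1 of 11191 tested genes or 0.00894%, and 271 genes had an unadjusted p below 0.05. DESeq2 called 70 genes, the fit without a filter on low counts 72 and a fit with the replicate number as a block 71. The labels give only that shared number, so the pairing is not given by the design. With 1 library left out a genotype has 1 library and no spread of its own, so those counts cannot decide this. The cause of the differing counts was not tested. In simulated counts of this comparison 7 of 50 genes changed 2-fold and 47 of 50 changed 16-fold were recovered. The libraries of the genotypes did not overlap for 22% of all genes. The median swap minus control log2 fold change was 0.01 for 21 proneural factors, -0.05 for 27 axon growth genes, 0.01 for 30 guidance genes, -0.21 for 20 transduction genes, -0.01 for 28 receptor choice and heterochromatin genes and -0.34 for 22 cell cycle genes, beside -0.00 for all genes. Cbx1 was the only member called in these lists by the main test. The median was 0.33 for 4 dorsal and -0.29 for 5 ventral markers, and none of these was called. The sign was not stable for the dorsal markers Nqo1 and Acsm4, whose fitted difference reached -0.08 and -0.71 in some alternatives, and both were lower in swap than in control in the replicate 2 libraries.

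The genes next to Cbx1 were receptors and immune genes held by few cells. Srgn, a proteoglycan of blood cell granules, had 36.4 and 35.5 CPM in the swap and 2.55 and 1.98 CPM in the control libraries (edgeR adjusted p = 0.0711), and its 240 swap UMIs lay in 17 cells. Cxcl2, a chemokine, had 185 UMIs in 12 swap cells and 6 UMIs in 3 control cells. The summed neutrophil markers overlapped between the genotypes, and the part of such cells in these values was not tested. Olfr1507 had 166 UMIs in 6 control cells and 0 UMIs in early, late and mature swap cells. In pooled UMIs of early cells it was at least 54.0-fold lower in swap against a limit of 3 UMIs over the group. That limit counts UMIs, and those of 1 cell are not independent. With 6 control cells it sets no such bound on the share of cells that expressed Olfr1507. Olfr1228, Olfr192 and Olfr291 had 0 UMIs in swap early cells and 197, 358 and 148 UMIs in 2, 5 and 6 control cells. Olfr633 and Olfr1271 had 0 UMIs in control early cells and 228 and 366 UMIs in 4 and 6 swap cells, and Olfr730 had 236 UMIs in 2 swap cells and 1 UMI in the controls. None of the genes named here passed the threshold in the main comparison, where their lowest edgeR adjusted p was 0.0711. All of them passed with DESeq2 and with the replicate number as a block, so their calls depend on the model fitted.

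Measures of OR expression in early cells overlapped between the genotypes. The median OR UMIs were 5.5 ± 0.707 in swap and 5.25 ± 0.354 in control libraries (SD, n = 2, exact permutation p = 1). OR genes per cell were 1.06 ± 0.134 and 1.24 ± 0.229 (exact permutation p = 0.667, n = 2), with swap below control by -0.109 between the replicate 1 libraries and by -0.243 between the replicate 2 libraries. Cells with 2 or more OR genes were 20.4% ± 3.37 and 24.5% ± 5.38 (exact permutation p = 0.667, n = 2), and the within-number differences were -2.68 and -5.51 points. The early share of immature cells was 50.03% ± 10.96 and 54.1% ± 7.92 (exact permutation p = 0.667, n = 2). No comparison of 2 against 2 libraries can give a p below 0.333, and the adjusted p was 1 for all 6 permutation comparisons of the genotypes.

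The share of ventral receptors in early cells is given as a description, since it depends on how receptors were placed. Each OR was placed by the dorsal and ventral marker genes of mature control and gg8tTA cells that had chosen it, and the 106 of 422 placed ORs with the highest ventral score were called ventral. Ventral ORs held 19.3% and 26.1% of the OR UMIs on placed ORs in early swap cells and 42.1% and 48.7% in early control cells, with 10.4% in tetOP2 and 26.0% in gg8tTA. The genotypes did not overlap, the mean difference was -22.7 points (SD 4.85 and 4.66, n = 2), and it was -22.8 and -22.5 points between the libraries of replicate 1 and of replicate 2. An OR could be placed only through control or gg8tTA cells, never through swap cells. With positions from the mature swap cells instead, over 207 ORs with 52 ventral ones, the shares were 27.6% and 22.3% in swap and 23.97% and 30.9% in control early cells, which overlapped, and the mean difference was -2.45 points. With positions from swap and control cells together, over 509 ORs, it was -19.9 points, with 25.2% and 24.2% against 40.8% and 48.4%. These placements were added after the data had been seen, and the difference is not independent of the libraries that place the receptors. The gg8tTA library, which carries no swap allele, lay at the upper swap library and below both controls. Late cells differed by -17.7 points and mature cells by -14.8 points, values added after the data had been seen. With positions from gg8tTA alone, which placed 46 ORs with 12 ventral ones, the early difference was -32.2 points, while late cells overlapped, at 4.42% and 1.08% in swap and 14.0% and 0.421% in control. In that placement early cells had 20.8% and 13.9% in swap, 45.2% and 53.9% in control, 34.3% in tetOP2 and 11.8% in gg8tTA. The gg8tTA library thus lay below both swap libraries there. The leading ventral OR had 181 of 1183 and 207 of 1843 ventral UMIs in swap and 344 of 2814 and 351 of 2621 in control early cells, and without the leading ventral OR of each library the difference was -20.2 points. Placed ORs held 57.3% to 67.4% of the OR UMIs in these libraries.

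**Figure D5:**
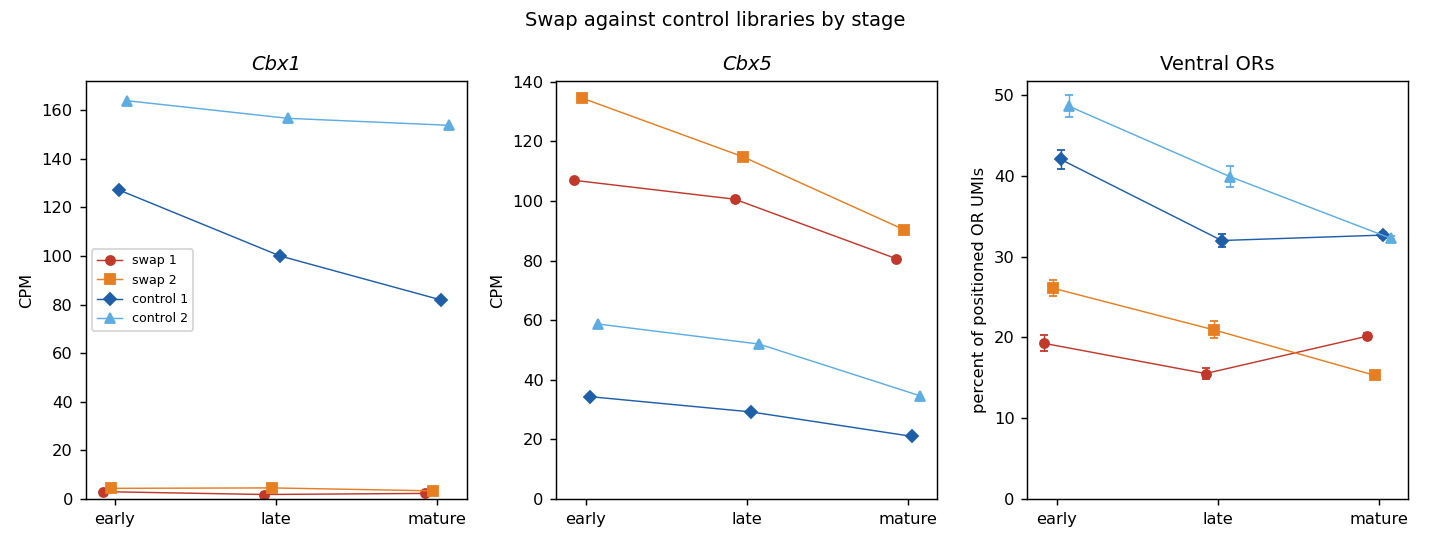
Cbx1 and Cbx5 in CPM and the percent of placed OR UMIs on ventral ORs in early, late and mature cells of the 2 swap and 2 control libraries. Bars on the right panel are exact 95% intervals of counting error. Receptors were placed through control and gg8tTA cells, with 19.3% and 26.1% ventral OR UMIs in early swap cells and 42.1% and 48.7% in early control cells.

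The early minus late difference itself was compared between swap and control libraries in a fit with an interaction of stage and genotype. Of 12085 genes 4 were called, or 0.0331%. Olfr633 and Olfr411 had the more positive early minus late difference in swap cells (0.0165%) and Sparc and BC100530 the more negative one (0.0165%). Their UMIs were concentrated in few libraries. Sparc, a matrix protein of mesenchymal cells, had 1564 of its late swap UMIs in swap replicate 1 alone, in 40 cells. BC100530 had 908 UMIs in 13 early cells of control replicate 1. The comparison rested on 184 to 398 early and 124 to 486 late cells per library.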

How the data were processed

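Droplet single-cell libraries of dissociated main olfactory epithelium were counted by the authors with Cell Ranger, intronic reads included, against mm10 per the submitters' processing notes, and deposited as counts of UMIs per gene and barcode in filtered matrices, whose headers give software version 3.1.0. Each matrix held 24564 genes and 2563 to 7703 barcodes, with 32005196 to 63277934 UMIs in total. The tetOP2 and gg8tTA barcodes come from another barcode list than those of the other libraries. Part of the genotype labels and 1 abundant gene are not reported here.

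From these counts, early and late cells were chosen by the stated UMI limits, with no clustering and no doublet caller. Mature cells had at least 10 Omp UMIs, more Omp than Gap43 and fewer than 5 of Cyp2g1. Precursors had at least 2 UMIs of Neurog1 and Neurod1 together and sustentacular cells at least 10 of Cyp2g1, both with fewer than 5 of Gap43 and 10 of Omp, and precursors with fewer than 5 of Cyp2g1. UMIs were summed per library and stage and tested in R 4.3.3 with edgeR 4.0.16 (filterByExpr, TMM, quasi-likelihood test), with DESeq2 1.42.0 as an alternative. Cells were thinned and single values compared by exact two-sided permutation tests in Python 3.11.15 (numpy 2.4.6, scipy 1.17.1, pandas 2.3.3). OR genes were 1116 Olfr names without a pseudogene suffix. Named genes were the markers, the 12 non-OR genes with the smallest adjusted p in each direction among called genes of the same sign in all 6 libraries (25.1% of tested genes had 1 sign), up to 4 called members of each list, the most abundant genes, the ORs of most cells and, for the genotypes, Cbx1, Cbx3, Cbx5 and the 5 non-overlapping genes with the smallest p in each direction. Other genes were named after their values were seen. Intervals are exact 95% binomial intervals, and a limit of 3 UMIs stands for a count of 0; both cover counting error only. On simulated data, 187 of 200 changed genes were recovered in the comparison of stages, 138 in that of genotypes and 123 in the interaction. The members and lists were chosen with earlier results of these data known. Libraries labelled as replicates may vary for technical reasons, which the p-values include.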

Additional observations from a re-analysis of the deposited data

Results flagged for a closer look

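In 4 genes the early minus late difference differed between swap and control libraries by edgeR's interaction test (adjusted p = 0.0465 for each), and since several sums are 0 the fitted values give a direction and not a size. For Sparc, a matrix protein of mesenchymal cells, the log2 difference was -3.17, and its UMIs were 225 and 15 in early and 1564 and 40 in late swap cells, against 101 and 5 in early and 59 and 3 in late control cells. For BC100530, of the stefin A family, it was -10.45, with 41 and 6 early and 801 and 5 late UMIs in swap and 908 and 1 early and 8 and 0 late UMIs in control libraries. For Olfr411 it was 11.01, with 3 and 40 early and 0 and 2 late UMIs in swap and 0 and 2 early and 95 and 174 late UMIs in control libraries, the late control UMIs lying in 3 cells. For Olfr633 it was 15.15, with 102 and 126 early and 2 and 1 late UMIs in swap, 0 early UMIs in the controls, and 158 UMIs in 1 late cell of control replicate 1.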

How the results depend on the processing

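The 845 calls between early and late cells became 323 without the library block and 214 in tetOP2 and gg8tTA alone, and leaving out 1 library gave 616 to 964. For swap against control, 70 genes were called by DESeq2, 72 without a filter on low counts, 5 in cells with 5000 to 20000 UMIs, 11 without cells holding other markers and 3 with at least 4 Tex15 and Nhlh1 UMIs, and leaving out 1 library gave 64 to 361. The interaction counts were 7, 35, 26 and 20 under the first 4 of these settings and 0 to 155 with 1 library left out. The cause of these shifts was not tested.

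OR UMIs, early minus late, were -3.75 (exact permutation p = 0.0312) with at least 4 Tex15 and Nhlh1 UMIs, -0.917 (p = 0.125) thinned to 1000 UMIs, -5.75 (p = 0.0625) thinned to 6000, -6.83 (p = 0.344) unthinned and -3.1 to -1.3 with 1 library left out. Between genotypes they turned to -1.75 unthinned, -0.5 with all Olfr names and -0.25 without cells holding other markers. OR genes per cell, early minus late, were -0.0334 thinned to 1000 UMIs, 0.26 thinned to 6000, 0.605 unthinned and 0.116 with at least 4 Tex15 and Nhlh1 UMIs, the last 3 with an exact permutation p of 0.0312. The share of cells with 2 or more OR genes differed by -0.645, 4.44 and 6.77 points at the first 3 of these depths (exact permutation p = 0.625, 0.0312 and 0.0312) and by -0.0832 points when each OR needed 2 UMIs. The leading OR's share differed by -0.578 points thinned to 1000 UMIs, -5.58 thinned to 6000, -6.54 unthinned and -4.34 with all Olfr names. Without cells holding other markers these 3 measures were -0.629, -10.4 and 8.09 over 6 libraries, where 8 tetOP2 and 5 gg8tTA early cells were left, and 0.0251, 0.696 and -2.13 in swap and control alone, an alternative chosen after seeing the data. Olfr17 was the leading OR of 56.4% of assigned early tetOP2 cells. With 1 library left out, swap minus control ranged from -1.89 to 1.77 points for the early share of kept cells, -11.9 to 3.64 for that of immature cells, -0.25 to 0.75 for OR UMIs, -0.338 to -0.0141 for OR genes per cell and -7.90 to -0.293 points for cells with 2 or more OR genes. The ventral difference was -26.1 to -19.3 points with 1 library left out and -2.45 points, with overlapping genotypes, when swap cells placed the receptors. Named genes of the stages kept their direction in the alternatives in which they were tested, with 705 of their values on the same side of the threshold and 65 no longer past it.

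With the replicate block, swap against control gave 71 calls, 57 higher and 14 lower in swap, of which 27 were OR names. In the main comparison 126 of the 11191 tested genes were OR names, and an OR sum rests on few cells. Cbx5 (edgeR adjusted p = 0.0145) and the 9 genes named beside Cbx1 were among the 71. The labels give only a shared number, and over 11196 genes the replicate 1 minus 2 differences of the genotypes correlated with r = 0.361, so this pairing is not given by the design. DESeq2's 70 calls shared 51 genes with these 71.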
